A study of Mus musculus with 6 samples.

Results

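Cd9, Cd37, Cd53, Cd63, Cd81, Cd82 and Cd151 are 7 genes of the tetraspanin family, several of which serve as surface markers of exosomes. The rule that picked them out used gene symbols and no measured value, but was set with earlier results of these data known. All 7 were found among the 24394 symbols in the transcript tables. They passed the filter on low values, which kept the 10352 genes averaging 1 FPKM or more. FPKM is the number of fragments scaled to transcript length and to the fragments mapped in the library, and levels are therefore compared between genes per length. The RNA-seq libraries were made from BMMs, macrophages grown from the bone marrow of C57BL/6 mice at postnatal day 28 and differentiated for 7 days with macrophage colony-stimulating factor at 50 ng/ml. In 3 libraries the BMMs had been cultured for 24 h with cartilage fragments at a ratio of 5 to each macrophage, and in 3 control libraries without them. No transgene or deletion was carried by either group, and no label says whether the 3 libraries of a group came from separate animals or cultures, so that p-values measure only the spread between these libraries. The series title speaks of human macrophages, whereas every sample is labelled as mouse and the positions are those of the mouse genome.

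Tetraspanins are small proteins that cross the membrane several times and gather integrins, immunoglobulin-type receptors and proteases into patches of the membrane. Exosomes are vesicles formed by inward budding of late endosomes and released when these fuse with the cell surface, and CD63, CD9 and CD81 are the proteins by which they are most often recognised. In the macrophage lineage, CD9 and CD81 restrain the fusion of macrophages into multinucleated cells, and CD37 and CD53 are largely restricted to leukocytes.

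The family is recognised by a Cys-Cys-Gly triplet in its large extracellular loop, and the coding stretch around it is shown because this triplet is what the 7 members share. The sequences are those of the GENCODE vM21 mouse transcripts matched to the most abundant reference transcript of each gene (7 of 7 matched), 5′ to 3′, with the 3 codons of the triplet in capitals. Each stretch of 30 bases crosses a splice junction.
Cd9, codon 150: gcgttggacTGCTGTGGCatagctggtcct
Cd37, codon 152: cagctgcgcTGCTGCGGCtggcaatctccg
Cd53, codon 144: caactgcagTGTTGTGGTgtaaatggctca
Cd63, codon 145: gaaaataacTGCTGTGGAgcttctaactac
Cd81, codon 156: acgctcaacTGTTGTGGCtccaacgcactg
Cd82, codon 149: caggtcaagTGCTGTGGCtgggtcagccac
Cd151, codon 155: gagttccacTGTTGTGGCagcaacaactct
The first and last bases of these stretches lie on mm10 (GRCm38) at chr6:125462177-125462329 on the minus strand for Cd9, at chr10:128912061-128912187 on the plus strand for Cd63 and at chr7:143066350-143066687 on the plus strand for Cd81.

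The members differ at the other end, where a cytoplasmic tail can carry a tyrosine-based sorting signal, a tyrosine followed by any 2 residues and a bulky hydrophobic one, which in CD63 directs the protein to late endosomes and lysosomes. The last 45 bases of each coding sequence, stop codon included, are shown with the 4 codons of such a signal in capitals.
Cd63: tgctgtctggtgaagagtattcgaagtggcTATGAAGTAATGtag
Cd37: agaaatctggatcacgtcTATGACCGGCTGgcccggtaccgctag
Cd82: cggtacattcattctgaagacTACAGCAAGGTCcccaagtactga
Cd151: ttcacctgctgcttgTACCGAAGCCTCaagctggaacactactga
Cd9: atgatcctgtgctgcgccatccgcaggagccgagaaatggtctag
Cd81: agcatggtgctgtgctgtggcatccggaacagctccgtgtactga
Cd53: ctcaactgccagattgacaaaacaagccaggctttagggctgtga
The signal was found in Cd63, Cd37, Cd82 and Cd151, and these letters were not in the windows of Cd9, Cd81 and Cd53. In Cd63 the tyrosine codon was 4 codons before the stop codon, against 7 in Cd82, 8 in Cd37 and 9 in Cd151.

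The depth behind these values was low by an estimate from the deposited coverage and FPKM. Each library held an estimated 699363 to 776424 fragments, with 742976 to 776424 in the controls and 699363 to 754221 with cartilage fragments. That is far below the mapped reads per sample stated in the methods of the study, and the reason was not tested. All counting errors given below rest on fragments estimated from the same coverage. Reference transcripts carried 80.0% to 84.2% of all FPKM, and the rest on transcripts that Cufflinks had assembled without a gene symbol. Of the 10 macrophage markers, 9 were above 0 in every library and Mertk was listed at 0 in control 1 and control 2, whereas 5 of 6 T and NK cell markers and 6 of 6 erythroid markers in the tables were listed at 0 in all. Xist was listed at 19.8 to 23.6 FPKM and 4 Y-linked genes at 0 in every library, although the methods of the study name male mice.

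Which of these genes changed when BMMs met cartilage fragments was the question of the comparison. Cd82 and Cd81 were higher in all 3 libraries with cartilage fragments than in any control, and Cd9 was lower in all 3, while Cd63, the most abundant of the 7, had the narrowest interval around no change. None of the 7 passed the threshold of an adjusted p under 0.05 in limma over all genes, where 19 of 10352 genes (0.184%) did. The paper, which names Cuffdiff and a corrected p under 0.05, lists Cd81 as significantly upregulated, with nearly the log2 fold change found here, and no other member. Of genes named below, it also lists Adam17, Cd44, Sdc4, Adgre1 and C1qb as higher and Mfge8, Tfrc, Col1a1 and Col1a2 as lower. At an unadjusted p under 0.05 there were 3 members, Cd81, Cd82 and Cd9, against 6.52% of all genes tested, and with estimated fragments in place of FPKM, where 0.126% of genes passed the adjusted threshold, there were again 0 members past it and 3 at the unadjusted one. Groups without overlap were seen for 2 members that were higher and 1 that was lower, where 8.73% and 6.13% of all genes tested showed this, 14.9% in all. Of the 7, 6 had a higher mean log2 value with cartilage fragments (52.1% of all genes tested), and the median log2 fold change was 0.09, beside 0.02 over all genes tested.

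**Figure D1:**
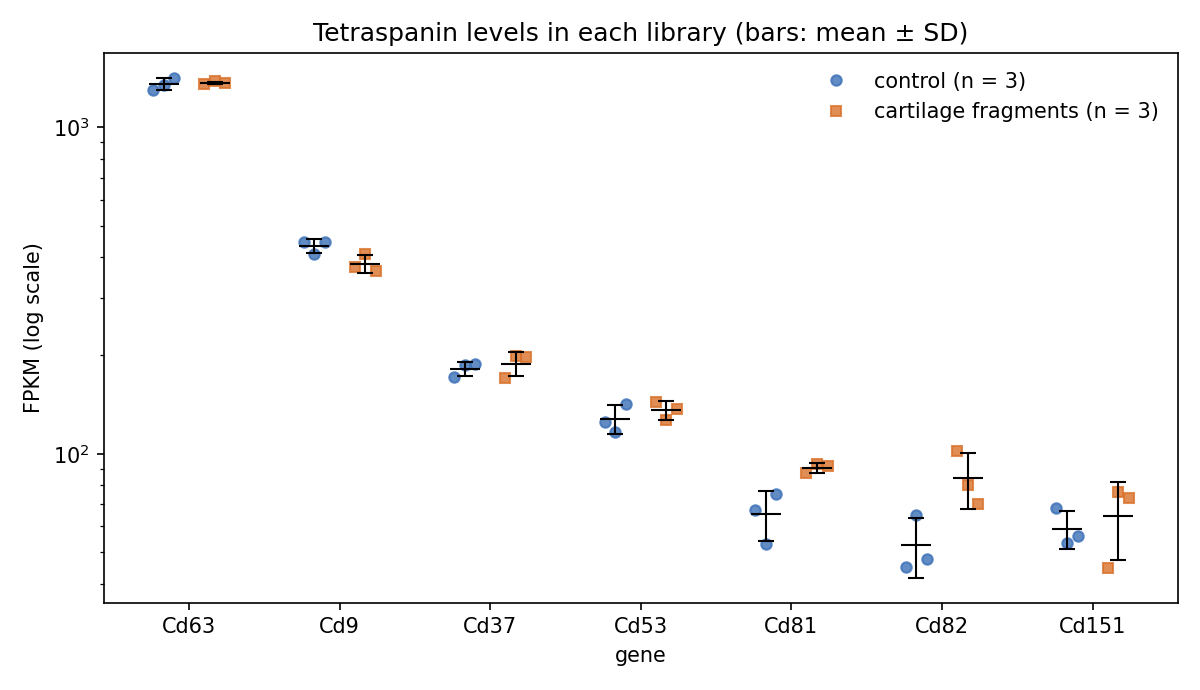
FPKM of the 7 tetraspanin genes (vertical axis, log scale) in each of 3 control libraries (circles) and 3 libraries with cartilage fragments (squares), with the mean and SD as bars. Cd63 lies at 1299 to 1416 FPKM in all 6 libraries, and the groups do not overlap for Cd9, Cd81 and Cd82.

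Cd63 encodes the tetraspanin of late endosomes, lysosomes and the vesicles within them. It stood at 1299, 1351 and 1416 FPKM in the controls and at 1357, 1381 and 1362 FPKM with cartilage fragments. The 3 values with cartilage fragments lay inside the range of the controls. The log2 fold change was 0.01 ± 0.042 (SE), with a 95% interval from -0.09 to 0.12 and an adjusted p of 0.945 in limma, so that a fold outside 0.938 to 1.08 lay beyond the interval. Its sign was not stable, since scaling the libraries to equal totals gave -0.02 and quantile normalization -0.09. The values rest on 2103 fragments in the controls and 2004 with cartilage fragments, all on NM_007653, whereas 2 other reference transcripts of Cd63 were listed at 0.

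Cd9 encodes a surface tetraspanin that holds integrins and immunoglobulin-type partners together. Its level was 445, 409 and 446 FPKM in the controls and 374, 408 and 362 FPKM with cartilage fragments. The groups did not overlap, but the lowest control and the highest library with cartilage fragments were less than 1 FPKM apart. The fold of 0.880 corresponded to a log2 fold change of -0.18 ± 0.070 (SE), with a 95% interval from -0.36 to -0.01 and an adjusted p of 0.726 in limma. Counting error of the 961 and 803 fragments alone gave a standard error of 0.069, close to that of the fit. In control 2 and control 3 the deposited FPKM of Cd9 lay outside the interval that Cufflinks listed for it.

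Cd81 encodes a partner of several immunoglobulin-type proteins at the cell surface. Control libraries held 67.3, 53.1 and 75.5 FPKM, and those with cartilage fragments 87.1, 92.9 and 91.5 FPKM. The groups did not overlap, and the libraries with cartilage fragments were the more alike, with a coefficient of variation of 3.37% against 17.4% in the controls. At the estimated number of fragments, counting error alone would give 10.9% and 12.5%. By that estimate the 3.37% is no measure of how alike the cultures were. The fold was 1.40, a log2 fold change of 0.48 ± 0.150 (SE) with a 95% interval from 0.12 to 0.85 and an adjusted p of 0.597 in limma. Fragments numbered 193 and 254, and their counting error alone gave a standard error of 0.138.

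Cd82 encodes a tetraspanin first known as a suppressor of metastasis, which is found on the cell surface and in endosomes. Its FPKM were 45.1, 64.9 and 47.6 in the controls and 102.2, 80.4 and 70.2 with cartilage fragments. All 3 libraries with cartilage fragments lay above all 3 controls, though control 2 and the third library with cartilage fragments were within 10 FPKM of each other. The fold of 1.60 was the largest of the 7 and corresponded to a log2 fold change of 0.68 ± 0.21 (SE), with a 95% interval from 0.17 to 1.19 and an adjusted p of 0.576 in limma. The 183 and 279 fragments behind it gave a counting error of 0.137, smaller than the standard error of the fit.

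Cd37 and Cd53 encode the tetraspanins of leukocytes, and CD37 binds Dectin-1, the receptor for fungal glucans encoded by Clec7a. Cd37 stood at 172, 187 and 188 FPKM in the controls and at 170, 199 and 197 FPKM with cartilage fragments. The groups overlapped, and the log2 fold change was 0.05 ± 0.091 (SE), with an adjusted p of 0.877 in limma. Cd53 stood at 125, 117 and 142 FPKM in the controls and at 144, 127 and 137 FPKM with cartilage fragments. Its groups overlapped as well, with a log2 fold change of 0.09 ± 0.106 (SE) and an adjusted p of 0.806 in limma. The 95% intervals reached from -0.18 to 0.27 for Cd37 and from -0.17 to 0.35 for Cd53 on the log2 scale.

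Cd151 encodes the partner of the laminin-binding integrins. Its FPKM were 68.0, 53.1 and 55.8 in the controls and 44.7, 76.1 and 73.2 with cartilage fragments. The first library with cartilage fragments was the lowest of all 6 and the other two were the highest. The log2 fold change was 0.10 ± 0.240 (SE), with a 95% interval from -0.49 to 0.69 and an adjusted p of 0.910 in limma, the widest interval of the 7. Without the second library with cartilage fragments it was -0.04, and without the third it was -0.01.

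**Figure D2:**
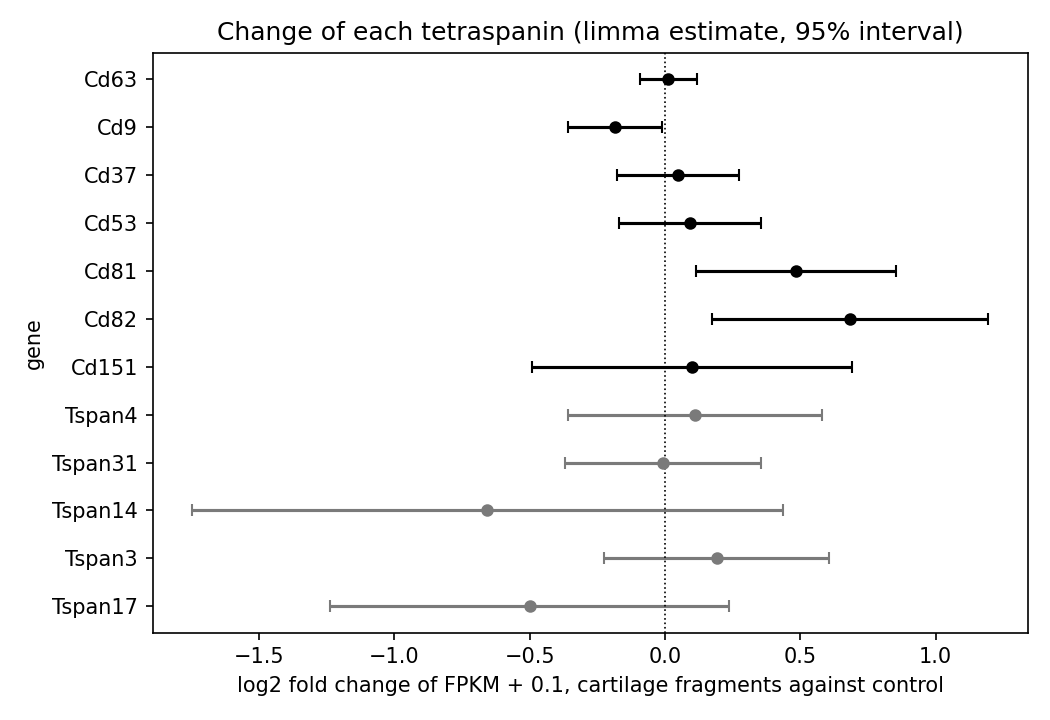
Log2 fold change of FPKM + 0.1 with cartilage fragments against control (horizontal axis) for the 7 members (black) and the 5 other tetraspanins averaging 10 FPKM or more (grey), with points for the limma estimate and bars for its 95% interval. The intervals of Cd81, Cd82 and Cd9 leave out 0, before any adjustment for the 10352 genes tested, and those of the other genes include it.

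The upper part of the order of levels was shared by all libraries and the lower part was not. Over all 6, the mean was 1361 FPKM for Cd63, 407 for Cd9, 186 for Cd37, 132 for Cd53, 77.9 for Cd81, 68.4 for Cd82 and 61.8 for Cd151. Cd63 was the gene of rank 33 among all genes by mean FPKM, and Cd151 that of rank 1042. The first 4 steps of this order held in 6 of 6 libraries, with ranges over the libraries that did not overlap. Cd63 exceeded Cd9 by a fold of 3.35, Cd9 exceeded Cd37 by 2.19, Cd37 exceeded Cd53 by 1.41 and Cd53 exceeded Cd81 by 1.72. Below that the neighbours did not differ beyond their spread, as Cd81 exceeded Cd82 in 4 libraries and Cd82 exceeded Cd151 in 3.

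The summed level of the 7 was 2276 ± 82.6 FPKM (SD, n = 3) in the controls and 2313 ± 45.4 FPKM (SD, n = 3) with cartilage fragments. Cd63 made up 59.5% ± 0.99 of the sum in the controls and 59.1% ± 0.60 with cartilage fragments (SD, n = 3 each). The share of Cd9 was 19.0% ± 0.89 in the controls and 16.5% ± 0.74 with cartilage fragments, without overlap. Cd81 made up 2.86% ± 0.43 and 3.91% ± 0.085, and Cd82 2.31% ± 0.51 and 3.65% ± 0.74, again without overlap. In an exact two-sided permutation test each of these 3 differences gave p = 0.1, the smallest value that 3 against 3 libraries can give, and an adjusted p of 0.233 over the 7 shares.

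Ratios between 2 members within a library do not depend on how the libraries were scaled. Of the 21 pairs, 8 had ratios whose groups did not overlap, and all 8 involved Cd9, Cd81 or Cd82. These are the members whose own levels did not overlap, and the ratios reuse the same values, so that this count is not separate evidence. How often ratios of other genes separate in this way was not computed. The log2 ratio of Cd9 to Cd81 was 2.74 ± 0.19 (SD) in the controls and 2.07 ± 0.079 with cartilage fragments, and that of Cd9 to Cd82 was 3.06 ± 0.35 and 2.19 ± 0.28. That of Cd63 to Cd81 was 4.39 ± 0.24 and 3.92 ± 0.038. The exact permutation p was 0.1 for each of the 8 pairs, the smallest possible, with an adjusted p of 0.263 over the 21 pairs. Between Cd81 and Cd82 the ratios overlapped, with a difference of -0.20.

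**Figure D3:**
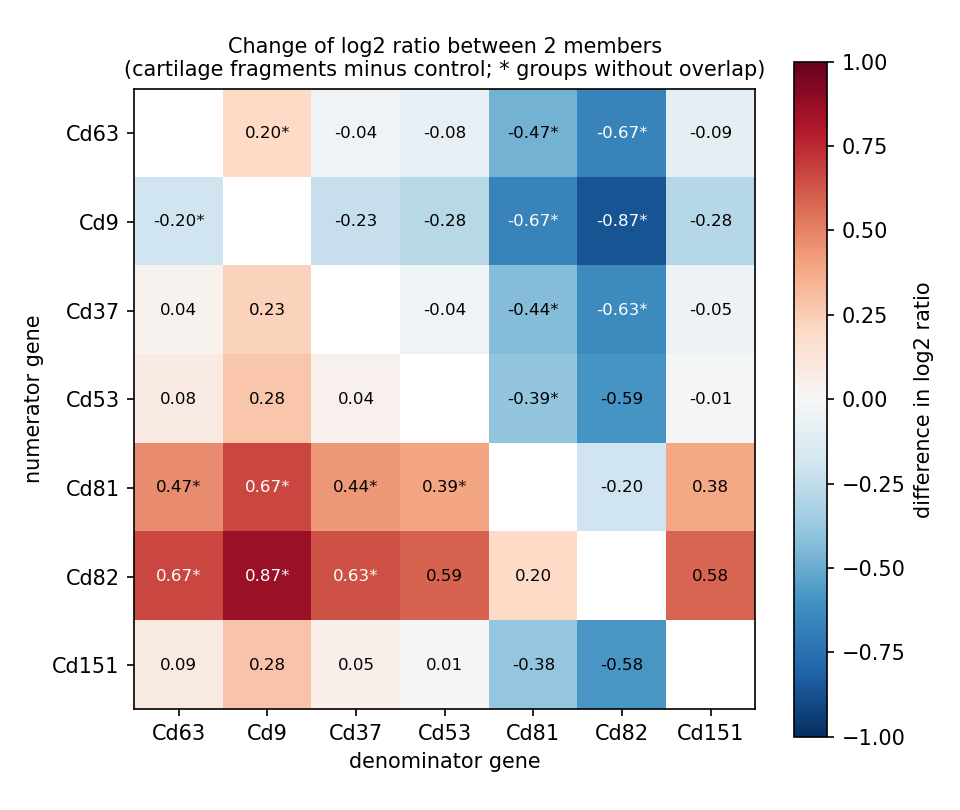
Difference in the mean log2 ratio of 2 members (row gene over column gene), cartilage fragments minus control, with red for a ratio higher with cartilage fragments and stars for ratios whose 3 values per group did not overlap. The darkest cells are those of Cd9 and Cd82, with a difference of -0.87.

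Several members were spread over more than 1 reference transcript. Cd9, Cd53, Cd63 and Cd81 each had their FPKM on a single transcript, so that gene and transcript values coincided. Of the 7 reference transcripts of Cd82, 4 had values above 0. NM_001136055 held 14.2, 23.9 and 15.8 FPKM in the controls and 68.8, 47.1 and 11.98 FPKM with cartilage fragments, and NM_007656 held 30.9, 11.3 and 21.7 FPKM against 33.4, 33.3 and 24.3 FPKM. Neither transcript separated as the sum did, since the groups overlapped in the former through the third library with cartilage fragments and in the latter the lowest value with cartilage fragments, 24.3, lay under the 30.9 of control 1. Tested alone, NM_001136055 had a log2 fold change of 0.95 ± 0.68 (SE) and an adjusted p of 0.808 in limma.

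For Cd151 the division between transcripts varied more than the sum. NM_001111049 held 45.7, 38.6 and 9.58 FPKM in the controls and 29.1, 47.3 and 73.2 FPKM with cartilage fragments, while NM_009842 held 12.9, 14.5 and 46.2 FPKM against 15.6, 15.9 and 0 FPKM. Both begin at the same base and differ within the transcript. In the library where NM_001111049 was lowest, control 3, NM_009842 was highest.

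Transcripts assembled without a symbol lay over Cd37 in all 6 libraries and over Cd151 in 1. Over Cd37 they summed to 41.2, 38.5 and 36.6 FPKM in the controls and to 66.1, 38.0 and 135 FPKM with cartilage fragments. They are outside the sums above and were assigned to Cd37 by position alone. Only those in control 2 and the third library with cartilage fragments lay in a Cufflinks locus with Cd37 as its only symbol. With all added, the span of Cd37 held 221 ± 6.8 FPKM in the controls and 269 ± 56 FPKM with cartilage fragments (SD, n = 3 each). These sums did not overlap, at 213 to 225 FPKM against 237 to 333 FPKM. The share of all genes whose sums by position separate in this way was not computed. Adding instead only those lines that Cufflinks placed in the same locus as a named transcript, for every gene, gave Cd37 a log2 fold change of 0.21 ± 0.241 (SE) and Cd151 one of 0.25 ± 0.144 (SE), with adjusted p of 0.824 and 0.648 in limma. That choice, made after the data were seen, left 38 genes (0.367%) and 0 members past the threshold.

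**Figure D4:**
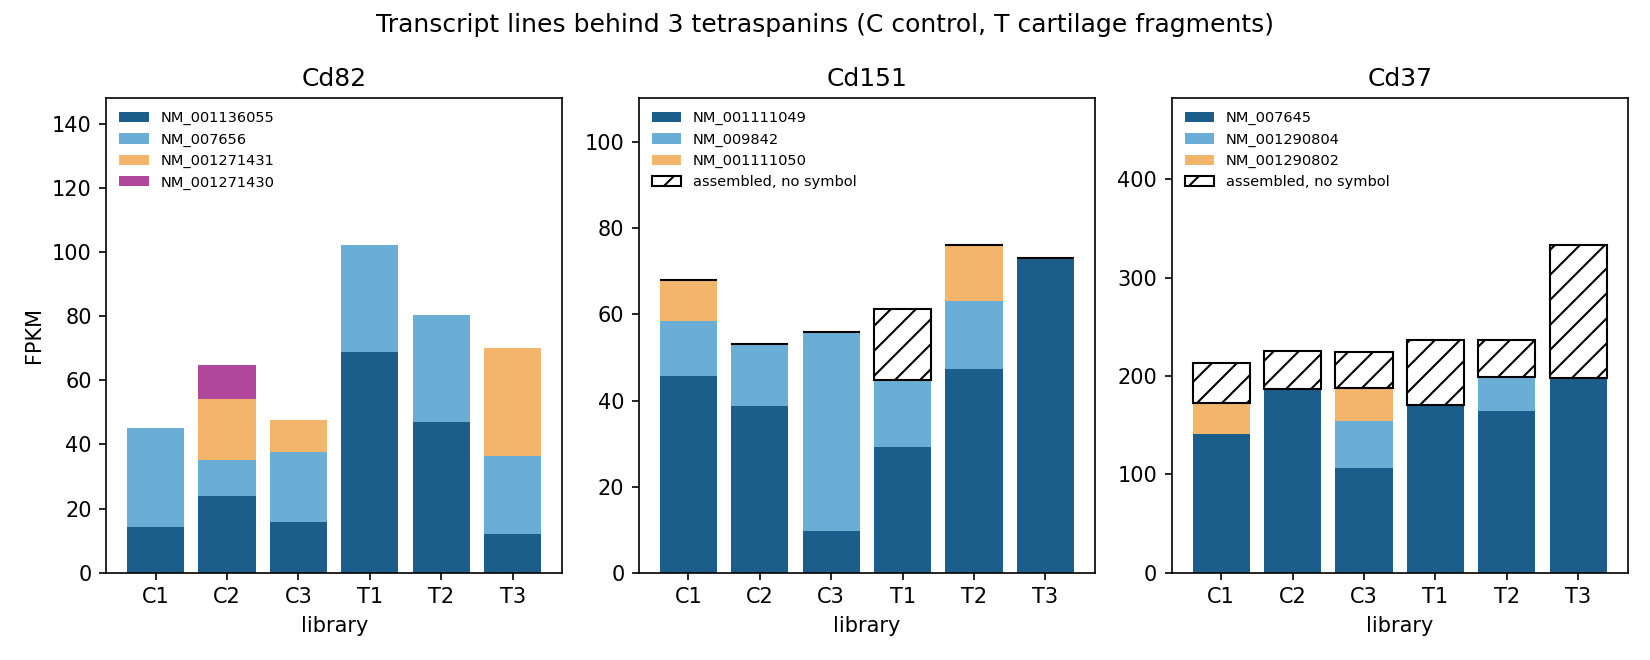
FPKM (vertical axis) of each reference transcript of Cd82, Cd151 and Cd37 in the 3 control libraries (C1 to C3) and the 3 with cartilage fragments (T1 to T3), stacked, with hatched boxes for assembled transcripts without a symbol. The hatched boxes over Cd37 add up to 135 FPKM in the third library with cartilage fragments, and the colours of Cd82 and Cd151 change places between libraries.

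The 120 bases before the start of the main transcripts of Cd81 and Cd82 are shown because these were the members that were higher without overlap. They are from RefSeq (GRCm38.p6), with each GC box (GGGCGG on either strand) in capitals.
Cd81, chr7:143052630-143052749, plus strand: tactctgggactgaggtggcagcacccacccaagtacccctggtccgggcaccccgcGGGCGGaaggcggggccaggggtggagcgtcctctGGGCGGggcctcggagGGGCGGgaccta
Cd82, chr2:93462951-93463070, minus strand: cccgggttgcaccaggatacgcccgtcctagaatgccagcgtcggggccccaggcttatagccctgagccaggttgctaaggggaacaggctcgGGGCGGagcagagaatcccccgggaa
In the full window of 250 bases before and 50 after the start, a GC box occurred 3 times for Cd81, 2 times for Cd82, 2 times for Cd151 and 1 time for Cd37, and 35.7% of 32851 such windows of mouse genes held one. An ETS core (GGAAGT) was found in the windows of Cd37 and Cd53 (23.8% of all windows) and an E-box (CACGTG) in that of Cd37 (7.15%). The letters of an AP-1 site (TGANTCA, in 7.81% of windows) and of the kappa B consensus (4.51%) were in none of the 5 windows that could be matched to a main transcript, those of Cd37, Cd53, Cd81, Cd82 and Cd151. No motif spelled out here contains the letters of another.

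The rest of the family was sparser. Of 24 other tetraspanins in the tables, 9 were tested, 4 had a higher and 5 a lower mean log2 value, 0 passed the adjusted threshold in limma with FPKM, with estimated fragments or with the assembled lines, and 0 had an unadjusted p under 0.05. Their median log2 fold change was -0.01. Tspan1, Tspan8, Tspan11, Tspan15, Upk1a, Upk1b and Prph2 were listed at 0 in all 6 libraries. Tspan4 was the most abundant of the others, at 89.5 ± 20.7 FPKM in the controls and 94.9 ± 4.5 FPKM with cartilage fragments (SD, n = 3 each), but its log2 fold change turned from 0.11 to -0.61 with the assembled lines added. Tspan3 was at 20.7 ± 0.58 FPKM and 23.8 ± 4.1 FPKM.

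The TspanC8 group escorts the protease ADAM10 out of the endoplasmic reticulum, and 3 of its 6 genes were tested. Tspan14 held 40.1, 51.8 and 51.4 FPKM in the controls and 40.8, 44.4 and 15.01 FPKM with cartilage fragments, and Tspan17 held 15.4, 17.8 and 20.1 FPKM against 16.9, 8.30 and 13.8 FPKM. Both overlapped between groups, and their log2 fold changes of -0.66 ± 0.44 and -0.50 ± 0.30 (SE) each had an adjusted p of 0.797 in limma. With the assembled lines added they were -0.12 and -0.16. Adam10 itself, named after its values were seen, stood at 53.8 ± 2.5 FPKM and 56.7 ± 5.8 FPKM (SD, n = 3 each).

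Among the membrane partners of tetraspanins 10 genes were tested and 0 passed the adjusted threshold in limma, under FPKM, estimated fragments and the assembled lines alike, and 4 had an unadjusted p under 0.05, beside 6.52% of all genes tested. Clec7a held 326, 334 and 351 FPKM in the controls and 314, 220 and 254 FPKM with cartilage fragments, without overlap. Its log2 fold change was -0.38 ± 0.136 (SE) with an adjusted p of 0.716 in limma, and with the assembled lines added it was -0.15. Itgb2, the common chain of the leukocyte integrins, was at 730 ± 21.5 FPKM in the controls and 617 ± 66.5 FPKM with cartilage fragments, likewise without overlap. Its log2 fold change of -0.25 (adjusted p of 0.698 in limma) turned to 0.18 with the assembled lines added (adjusted p of 0.253 in limma). Adam17, the protease that releases TNF from the cell surface, was at 55.95 ± 7.0 FPKM and 81.9 ± 7.5 FPKM, and Cd44, the receptor for hyaluronan, at 102 ± 2.7 FPKM and 118 ± 7.9 FPKM (SD, n = 3 each), both without overlap and with adjusted p of 0.438 and 0.761 in limma. Over the 10 membrane partners tested, the log2 fold changes had a median of 0.15.

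The machinery that makes and releases exosomes was followed in 2 lists. Of the ESCRT and vesicle formation genes 26 of 28 were tested, 17 with a higher and 9 with a lower mean log2 value, and 0 passed the adjusted threshold in limma, with 2 at an unadjusted p under 0.05 (6.52% of all genes tested). Ist1, an ESCRT-III protein, was at 36.7 ± 4.5 FPKM in the controls and 24.9 ± 5.0 FPKM with cartilage fragments, and Vps4a, the ATPase that takes ESCRT-III apart, at 14.3 ± 3.2 FPKM and 19.9 ± 3.8 FPKM (SD, n = 3 each), with adjusted p of 0.708 and 0.779 in limma. The log2 fold change of Ist1 was -0.57, and -0.28 with the assembled lines added. Mvb12a, an ESCRT-I subunit, was at 37.8 ± 1.8 FPKM and 29.8 ± 9.97 FPKM, and Pld2, a phospholipase D, at 16.1 ± 4.0 FPKM and 22.2 ± 1.6 FPKM, a log2 fold change of 0.49 that was 0.01 with the assembled lines added. Of the transport and release genes 11 of 14 were tested, 0 passed the adjusted threshold in limma and 0 had an unadjusted p under 0.05. Without overlap, 3 were lower, Rab11a and Rab11b among them, and 0 were higher, beside 6.13% and 8.73% of all genes tested. Rab11a, a GTPase of recycling endosomes, was at 46.1 ± 2.0 FPKM and 40.7 ± 0.70 FPKM, without overlap and with an adjusted p of 0.797 in limma. Rab11b held 20.9, 20.7 and 21.8 FPKM in the controls and 9.84, 19.8 and 20.5 FPKM with cartilage fragments, a log2 fold change of -0.41 that was 0.0052 with the assembled lines added. Rab35 was at 31.5 ± 3.2 FPKM and 35.9 ± 7.8 FPKM. Rab7, a GTPase of late endosomes, was at 290 ± 105 FPKM and 313 ± 23.2 FPKM, and its log2 fold change turned from 0.19 to -0.18 with the assembled lines. The medians of the 2 lists were 0.10 and 0.06 on the log2 scale. Estimated fragments and the added assembled lines gave 0 genes past the threshold in both lists.

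Of the other proteins carried by exosomes 16 of 16 genes were tested and 0 passed the adjusted threshold in limma, nor did any with estimated fragments or the assembled lines, whereas 5 had an unadjusted p under 0.05, beside 6.52% of all genes tested. Tfrc, the transferrin receptor whose shedding led to the discovery of exosomes, held 172, 159 and 190 FPKM in the controls and 128, 107 and 126 FPKM with cartilage fragments. The groups did not overlap, and the log2 fold change was -0.53 ± 0.113 (SE) with an adjusted p of 0.348 in limma. Mfge8, which bridges phosphatidylserine and integrins, held 467, 496 and 531 FPKM against 367, 299 and 408 FPKM, without overlap and with an adjusted p of 0.465 in limma. Sdc4, a heparan sulfate proteoglycan, held 33.4, 27.3 and 22.3 FPKM against 44.7, 59.0 and 43.6 FPKM, again without overlap, with an adjusted p of 0.450 in limma. Over the 16 the log2 fold changes had a median of 0.06, with 10 genes higher and 6 lower in mean log2 value. Flot2, a flotillin, had the highest of these fold changes, 1.03 ± 0.64 (SE), with overlapping values of 6.70, 25.0 and 6.48 FPKM against 32.0, 23.2 and 12.8 FPKM, and 0.37 with the assembled lines added.

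For 3 members the genes most like them over the 6 libraries were taken, by the smallest root mean square difference of the log2 values after each gene was centred on its own mean, among the 5110 genes that averaged 10 FPKM or more. For Cd63 these were Ly9, Rplp2 and Anapc1, with differences of 0.019 to 0.026 against a median of 0.290 over all genes compared with it. For Cd9 they were Cmtm6, Metrnl and Adap1, with differences of 0.044 to 0.053 against a median of 0.312. For Cd81 they were Cryl1, Derl2 and Memo1, with differences of 0.070 to 0.087 against a median of 0.406. Cmtm6 stood at 52.7 FPKM in the controls and 45.04 FPKM with cartilage fragments, and Cryl1 at 16.2 and 22.0 FPKM, in the means of 3 libraries.

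In bulk libraries, fewer cells of a type and less RNA per cell cannot be told apart, and markers of other cells are given for that reason. All 10 macrophage markers were tested, 9 with a higher mean log2 value (52.1% of all genes tested) and 4 higher without overlap (8.73%). C1qb stood at 413 ± 122 FPKM in the controls and 657 ± 19.6 FPKM with cartilage fragments (SD, n = 3 each), with an adjusted p of 0.671 in limma, and its log2 fold change of 0.72 was 0.17 with the assembled lines added. Mertk held 25.4 FPKM in control 3 and 21.3 to 45.8 FPKM with cartilage fragments. With 0 in control 1 and control 2, its log2 fold change was 5.48 ± 2.29 (SE), with an adjusted p of 0.777 in limma. With the assembled lines added it was 0.13. By contrast Csf1r, the receptor for the growth factor in the medium, was at 613 ± 37.8 FPKM and 617 ± 52.4 FPKM, and Lyz2, the macrophage lysozyme, at 32511 ± 5117 FPKM and 32334 ± 5222 FPKM. Adgre1, named after its values were seen, was the exception among the lists, at an adjusted p of 0.620 in limma on named lines and of 0.00952 with the assembled lines added. The 11 chondrocyte markers in the tables summed to 1.54 to 4.22 FPKM in the controls and 1.18 to 2.82 FPKM with cartilage fragments, with 6 of them, Prg4 and Col9a1 included, at 0 in every library. The 8 fibroblast markers summed to 153 to 170 FPKM in the controls and 105 to 119 FPKM with cartilage fragments. Nearly all of this was Col1a1, with 79.0 ± 7.3 and 47.8 ± 3.8 FPKM, and Col1a2, with 72.8 ± 15.4 and 58.6 ± 3.5 FPKM (SD, n = 3 each). Pdgfra, Pdgfrb, Thy1 and Lum averaged under 1 FPKM in both groups, Col3a1 was at 3.14 and 1.73 FPKM, and Dcn at 2.79 and 3.52 FPKM. The 8 neutrophil markers in the tables summed to 766 to 953 FPKM and 758 to 1101 FPKM. Whether the macrophage and fibroblast markers had a part in the values of Cd9, Cd81 and Cd82 was not tested.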

How the data were processed

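Paired-end reads of 100 bp from a TruSeq Stranded mRNA library of each of 6 samples were processed by the authors. The deposited FPKM are Cufflinks values per transcript on mm10, and the tools listed in the submitters' notes are TopHat, Bowtie, Cufflinks and Cuffdiff, whose versions and strand setting are not given in the sources used here. The deposited coverage is the signal, or mean read depth, that Cufflinks writes beside each FPKM. FPKM were summed over the lines of a gene symbol, and lines without a symbol were left out.

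Genes averaging 1 FPKM or more were compared on log2(FPKM + 0.1) with limma 3.58.1 in R 4.3.3 (lmFit, eBayes with trend and robust, two-sided), 3 libraries against 3, with Benjamini-Hochberg adjustment over 10352 genes and a threshold of 0.05. The 0.1 added to FPKM brings fold changes of low genes nearer to no change. A gene listed at 0 in some libraries can instead get a large one, as Mertk did with a log2 fold change of 5.48. Shares and ratios were compared with exact permutation tests in Python 3.11.15 (pandas 2.3.3, numpy 2.4.6, scipy 1.17.1, matplotlib 3.10.9).

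Fragments were estimated as coverage times the transcript length less an offset of 208 to 225 bases, divided by 100. For each library the offset was the one giving most whole numbers (within 0.1, values up to 8), 93.3% to 94.3% of single-transcript values. With the same offset and 2 reads per fragment the share was 40.1% to 41.5%. As the offset was picked for the former, this contrast was no independent test. The formula first planned, with 2 reads per fragment and no offset, was replaced without being scored itself. These counts cover counting error only. The limma script was tested on simulated data. Named genes were all 7 members, the genes of each list past the threshold, and the 2 highest and 2 lowest fold changes per list among genes averaging 10 FPKM or more. For lists of markers of other cells the sum or a few genes are given. The members and lists were chosen with earlier results of these data known. Alternatives changed the pseudocount, filter, scaling, model, lines used and libraries.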

Additional observations from a re-analysis of the deposited data

Results flagged for a closer look

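Assembled transcripts without a gene symbol, which the comparison of named genes did not use, were above their highest control level in libraries with cartilage fragments at 2 of the 7 genes. Over Cd37 they summed to 66.1 FPKM in the first library with cartilage fragments and to 135 FPKM in the third, where the highest control held 41.2 FPKM and the second library with cartilage fragments 38.0 FPKM. Over Cd151 a single assembled transcript was listed at 16.7 FPKM in the first library with cartilage fragments, the library in which the named transcripts of Cd151 were lowest, and none in the other 5. The assembled lines over Cd37 rest on about 27 to 41 fragments each and the line over Cd151 on about 22. How reads were divided between these lines and the named transcripts was not tested. With 3 libraries a group, single outlying libraries were not looked for.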

How the results depend on the processing

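The 7 members stayed short of the threshold in all 20 alternatives that were run for each, with the lowest adjusted p in limma at 0.266 for Cd82 and 0.304 for Cd81, both with the assembled lines of the locus added. Over these alternatives the log2 fold change ranged from -0.25 to -0.15 for Cd9, from 0.34 to 0.60 for Cd81 and from 0.53 to 0.84 for Cd82. Cd63 turned to -0.02 with equal totals, -0.0087 with median-ratio size factors, -0.088 with quantile normalization and -0.0046 with scaled fragments. When each library was left out in turn, it ranged from -0.017 to 0.045 for Cd63 and from -0.036 to 0.35 for Cd151, the lower ends without control 1 and without the second library with cartilage fragments. Likewise the differences in share reached from -0.071 to 0.494 percentage points for Cd37, from -0.978 to 0.000596 for Cd63 and from -0.023 to 0.606 for Cd151. The count of all genes past the threshold, 19, was 8 with a pseudocount of 0.01, 12 with a filter at 5 FPKM, 38 (32 higher, 6 lower) with the assembled lines added and 0 to 19 when a library was left out, with 0 without the first library with cartilage fragments, 2 without the second, 6 without the third and 10 without control 2.

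The replicate numbers are shared by both groups, but same-numbered libraries deviated together with a correlation of only 0.01 to 0.03, so they were not taken as pairs. With the replicate block 0 genes passed the threshold in limma and 519 had an unadjusted p under 0.05. At an estimated 699363 to 776424 fragments a library, counting error alone came to 0.045 on the log2 scale for Cd63, 0.069 for Cd9 and 0.138 for Cd81, near the standard errors of their fold changes, and to 0.137 for Cd82 and 0.138 for Cd151, well under theirs.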
